A study of Mus musculus with 10 samples.

Results

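The mitochondrial genome of the mouse carries 37 genes, and all 37 were found by chromosome among the 53090 Ensembl gene IDs counted in cortex. They are 13 protein genes, 2 rRNA genes and 22 tRNA genes, of which 28 lie on the plus strand and 9 on the minus strand of the annotation. The minus-strand genes are mt-Nd6 and 8 tRNA genes. Each was taken as counted at its own ID, and 16 of the 37 IDs had a count in some library while 21 stood at 0 in all 10 libraries.

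RNA came from a small piece of dissected cortex, part of 1 hemisphere, of 10 mice on a C57BL/6 background, with 1 library per animal. In 5 mice, labelled dTPR/dTPR (genotype dTPR-/dTPR-), both copies of the gene for STI1 (Stip1) lack the TPR1 domain, and these animals were 541 to 630 days old. The 5 wt/wt mice were 442 to 663 days old. STI1 is a co-chaperone that links HSP70 and HSP90, and the comparison asks which transcripts differ without this domain. Sex, litter and the cells in which the allele acts are not given in the labels. Library totals ran from 689226 to 924559 counts in dTPR/dTPR and from 667751 to 927242 counts in wt/wt (exact permutation test, two-sided, p = 0.492), and 3 counts corresponded to 3.24 to 4.49 CPM, which are counts scaled to a fixed library total. Stip1 itself was counted 0 to 8 times per library, so the allele could not be checked. Of the marker genes of cortical excitatory neurons, 5 (Slc17a7, Neurod2, Neurod6, Tbr1 and Camk2a) reached at most 8 counts in a library, so the tissue label could not be checked at these IDs either.

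Both strands of mitochondrial DNA are transcribed into long precursors. The tRNAs sit between the longer genes like punctuation, and RNase P and ELAC2 release them and thereby the mRNAs and rRNAs. The proteins encoded are subunits of respiratory complexes I, III and IV and of ATP synthase. In human cells the mRNA of ND5 runs on past its coding end over the stretch that is antisense to ND6, and the mRNA of CO1 over the stretch antisense to a serine tRNA.

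The minus-strand members held nearly all mitochondrial counts, with 96.95% at mt-Nd6 and 2.92% at the 8 tRNA IDs. The sequences of the minus-strand tRNA genes other than mt-Ty are shown with the anticodon in capitals. They are given 5′ to 3′ on the minus strand, from the transcripts of GENCODE mouse release M21 (build GRCm38). Of mt-Nd6 only the end is shown, further below. The first lies next to mt-Nd6, and the second is the last annotated gene of the genome. Apart from mt-Tq and mt-Ts1, the others come from the cluster between mt-Nd2 and mt-Co1. mt-Tq and mt-Ts1 have plus-strand genes on both sides. mt-Tq shares 3 bases with mt-Ti, and mt-Ts1 shares 3 bases with mt-Co1.
mt-Te (glutamate tRNA, 14071 to 14139): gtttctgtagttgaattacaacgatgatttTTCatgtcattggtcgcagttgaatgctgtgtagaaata
mt-Tp (proline tRNA, 15356 to 15422): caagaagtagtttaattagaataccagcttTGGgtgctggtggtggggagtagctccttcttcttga
mt-Ta (alanine tRNA, 5018 to 5086): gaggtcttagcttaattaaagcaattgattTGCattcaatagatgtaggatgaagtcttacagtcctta
mt-Tn (asparagine tRNA, 5089 to 5159): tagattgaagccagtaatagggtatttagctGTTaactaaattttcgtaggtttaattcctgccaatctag
mt-Tc (cysteine tRNA, 5192 to 5257): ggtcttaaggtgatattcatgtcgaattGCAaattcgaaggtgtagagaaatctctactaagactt
mt-Tq (glutamine tRNA, 3772 to 3842): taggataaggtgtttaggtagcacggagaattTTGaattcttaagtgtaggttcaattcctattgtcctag
mt-Ts1 (a serine tRNA, 6870 to 6938): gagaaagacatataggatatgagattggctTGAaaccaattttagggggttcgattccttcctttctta

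The ends of mt-Nd5 and mt-Nd6 meet head-on. mt-Nd5 (11742 to 13565, plus strand) and mt-Nd6 (13552 to 14070, minus strand) share 14 bases, shown in capitals at the 3′ end of each, in 5′ to 3′ direction on its own strand.
End of mt-Nd5 (13506 to 13565, plus): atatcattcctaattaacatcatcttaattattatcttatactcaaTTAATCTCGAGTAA
End of mt-Nd6 (13552 to 13611, minus): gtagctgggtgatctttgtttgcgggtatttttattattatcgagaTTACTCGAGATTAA

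The 9 minus-strand IDs held 99.9% of mitochondrial counts on 1068 annotated bases, and the 28 plus-strand IDs held 0.128% on 14373 bases. Per length this came to 213464 CPM per kb on the minus strand and 20.5 CPM per kb on the plus strand. The order is the reverse of what is known of these genes, since the abundant mitochondrial mRNAs and both rRNAs are encoded as plus-strand genes. The 3 IDs with the most counts after mt-Nd6 also lie opposite to genes, which are Gnas, Gsk3a and Ajm1. The strand setting used for counting is not given in the sources used here, so RNA of an ID's own strand and RNA of the opposite strand cannot be told apart. The levels below are therefore levels at an ID, not of the gene it is named for.

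**Figure D1:**
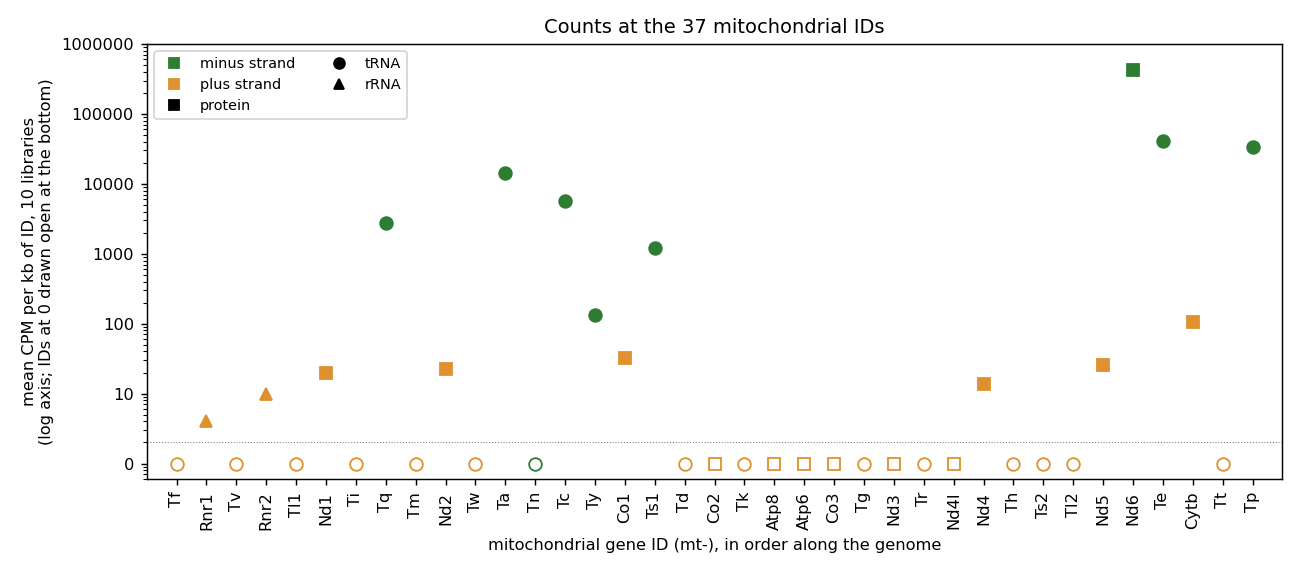
Mean CPM per kb of ID over 10 libraries (log axis) for the 37 mitochondrial IDs in their order along the genome, with IDs at 0 drawn open at the bottom. The minus-strand IDs stand between 132.4 CPM per kb at mt-Ty and 426461 CPM per kb at mt-Nd6, apart from mt-Tn at 0, and no plus-strand ID exceeds 104.0 CPM per kb.

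mt-Nd6, which encodes a subunit of complex I, was the ID with the most counts in the series. It took 22.8, 20.4, 20.4, 19.4 and 23.6% of all counts in dTPR/dTPR animals 1 to 5, against 19.7, 27.3, 26.4, 20.3 and 21.01% in wt/wt animals 1 to 5. Wt/wt animals 2 and 3 lay above every other animal, and the other 3 wt/wt animals lay within the dTPR/dTPR range, so the groups overlapped. The next ID, Gm20721 opposite to Gnas, held 5.14% of counts on average. The 95% Wilson interval of the share was narrow, for example 22.7 to 22.9% in dTPR/dTPR animal 1, and covers counting error only. The SD of the share over the 10 libraries was 2.81 percentage points, 60.3 times the 0.0466 that counting alone would give in a library of mean size. Relative to its level, mt-Nd6 in CPM was nevertheless among the steadier IDs, with a coefficient of variation of 12.7% over 10 libraries. The median of the 121 IDs at or above 1000 CPM was 17.2%. However, mt-Nd6 makes up 22.1% on average of the total that it is divided by, which narrows its own variation. Its variation against a total without mitochondrial counts was not computed.

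mt-Nd5, whose product is the largest complex I subunit made in mitochondria, had 36, 44, 30, 42 and 46 counts in dTPR/dTPR animals 1 to 5, against 22, 35, 44, 14 and 61 counts in wt/wt animals 1 to 5. It shares only the 14 bases above with mt-Nd6, whose count over all libraries was 4757 times as high.

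The 8 minus-strand tRNA IDs together held 53615 counts, and 75.4% of these lay at mt-Te and mt-Tp. mt-Te follows mt-Nd6 with 0 bases between them and stood at 40305 CPM per kb, so mt-Nd6 was 10.6 times higher per length. mt-Tp stood at 33180 CPM per kb, mt-Ta at 14238, mt-Tc at 5692, mt-Tq at 2714, mt-Ts1 at 1199 and mt-Ty at 132.4 CPM per kb. A read that overlaps both mt-Nd6 and mt-Te can be set aside as ambiguous by HTSeq, depending on a mode that is not given in the sources used here.

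mt-Te had 3186, 3395, 1574, 1397 and 2627 CPM in dTPR/dTPR animals 1 to 5, against 3198, 4369, 4623, 1502 and 1939 CPM in wt/wt animals 1 to 5. The groups overlapped over most of their range, with wt/wt animals 3 and 2 the highest and dTPR/dTPR animal 4 the lowest. Its coefficient of variation was 42.1%, and 6 of the 121 IDs at or above 1000 CPM had a larger one.

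mt-Tp had 1616, 2430, 1325, 2835 and 1844 CPM in dTPR/dTPR animals 1 to 5, against 2162, 2889, 1922, 2808 and 2400 CPM in wt/wt animals 1 to 5. Here the lowest values were dTPR/dTPR animals 3 and 1, and the groups overlapped. mt-Te and mt-Tp did not follow each other from animal to animal: the mt-Te count per mt-Tp count ran from 0.493 to 1.97 in dTPR/dTPR and from 0.535 to 2.41 in wt/wt. The lowest ratio was in animal 4 of each group.

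mt-Ta, first of the cluster in which several minus-strand tRNA genes lie side by side, was steadier. It had 1080, 698.2, 1018, 1154 and 1017 CPM in dTPR/dTPR animals 1 to 5, against 807.8, 1081, 837.3, 1092 and 1038 CPM in wt/wt animals 1 to 5. dTPR/dTPR animal 2 was the lowest and the groups overlapped fully. mt-Tn, 2 bases further on, had 0 counts in all 10 libraries, which allows up to 0.376 CPM over all libraries together (3 counts, counting error only). mt-Tc, 32 bases beyond mt-Tn, had 457.2, 262.4, 375.8, 229.3 and 359.3 CPM in dTPR/dTPR animals 1 to 5, against 449.1, 418.5, 281.0, 474.7 and 449.6 CPM in wt/wt animals 1 to 5. The wt/wt values lay high except in animal 3, and the groups overlapped. mt-Ty, the tyrosine tRNA gene at the end of the cluster, had 0 to 26 counts per library in dTPR/dTPR and 2 to 14 in wt/wt, and did not pass the filter on low counts.

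mt-Tq had 130.1, 147.7, 124.8, 133.0 and 190.2 CPM in dTPR/dTPR animals 1 to 5, against 214.1, 214.6, 438.5, 209.7 and 124.5 CPM in wt/wt animals 1 to 5. Of the wt/wt animals, 4 lay above every dTPR/dTPR animal and animal 5 lay below all of them. mt-Ts1 had 1.24, 8.60, 91.4, 8.65 and 0 CPM in dTPR/dTPR animals 1 to 5, against 27.8, 53.9, 41.9, 62.9 and 531.2 CPM in wt/wt animals 1 to 5. A single animal in each group, dTPR/dTPR animal 3 and wt/wt animal 5, stood far above the others.

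**Figure D2:**
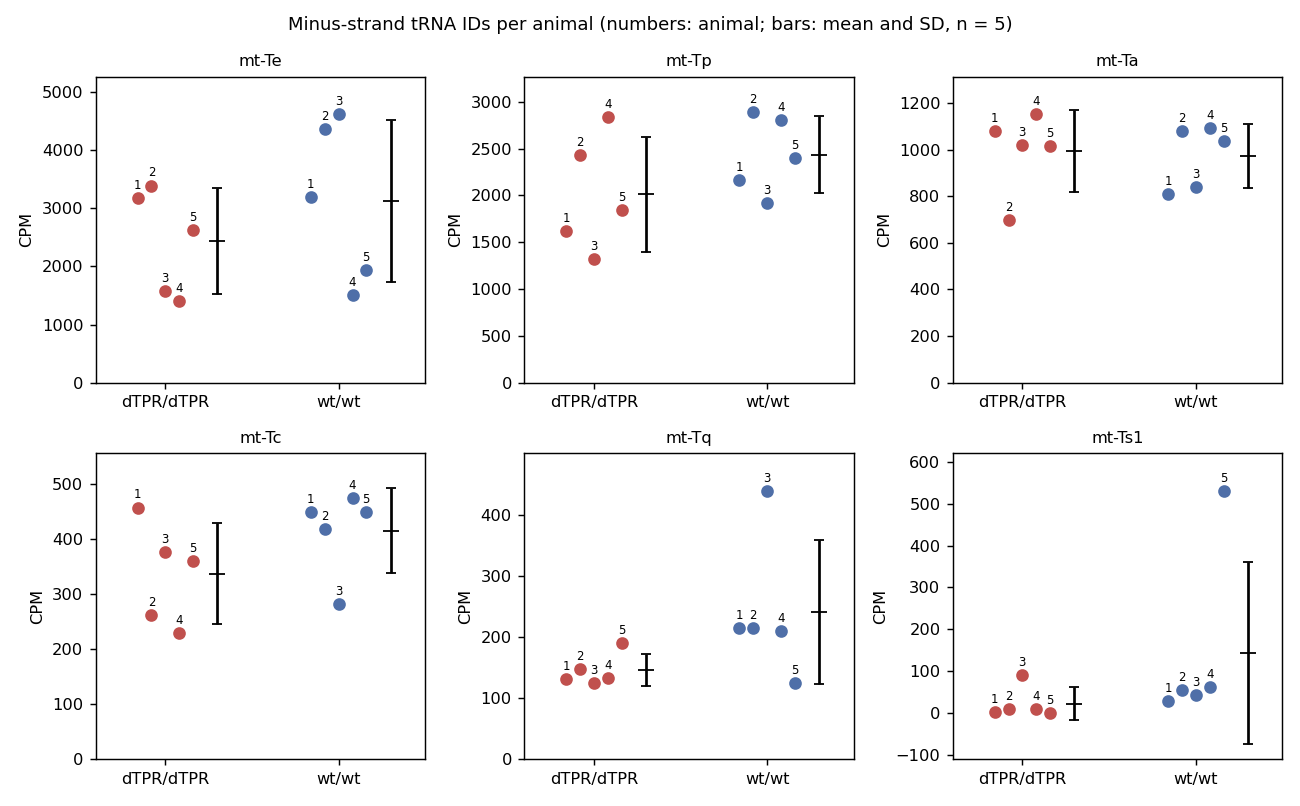
CPM of 6 minus-strand tRNA IDs in each animal, with dTPR/dTPR left and wt/wt right, numbers for the animals and bars for the mean and SD (n = 5 each). mt-Te spreads from 1397 to 4623 CPM over the animals, mt-Ta stays between 698.2 and 1154 CPM, and mt-Ts1 is above 100 CPM in wt/wt animal 5 alone.

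The plus-strand IDs held 2352 counts in all. The 14 plus-strand tRNA IDs had 0 counts in every library. Of the 12 plus-strand protein genes, 6 had counts and 6 had 0. mt-Cytb, which encodes cytochrome b of complex III, was highest per length with 104.0 CPM per kb and held 40.1% of plus-strand counts. mt-Co1, the catalytic subunit of complex IV, stood at 32.1 CPM per kb, mt-Nd5 at 25.4, mt-Nd2 at 22.3, mt-Nd1 at 19.4 and mt-Nd4 at 13.9 CPM per kb, the last 4 being complex I genes. The rRNA genes, whose RNAs form the mitochondrial ribosome, were lowest, mt-Rnr2 at 9.79 and mt-Rnr1 at 4.11 CPM per kb. Whether these counts are of minus-strand RNA or of plus-strand RNA placed on the wrong strand was not tested.

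mt-Cytb had 109.0, 152.0, 146.5, 109.2 and 77.9 CPM in dTPR/dTPR animals 1 to 5, against 118.2, 128.3, 57.8, 127.3 and 163.1 CPM in wt/wt animals 1 to 5. The groups overlapped over nearly the whole range. mt-Co1 had 96.6, 38.7, 65.3, 37.9 and 38.3 CPM in dTPR/dTPR animals 1 to 5, against 31.98, 34.5, 46.5, 44.9 and 61.7 CPM in wt/wt animals 1 to 5. dTPR/dTPR animal 1 was the highest, and the other animals overlapped. mt-Nd5 had 44.6, 63.1, 43.5, 45.4 and 60.8 CPM in dTPR/dTPR, against 30.6, 37.7, 49.9, 20.97 and 67.2 CPM in wt/wt. The dTPR/dTPR values lay inside the wt/wt range.

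At lower counts, mt-Nd2 had 29.7, 10.04, 33.4, 21.6 and 27.7 CPM in dTPR/dTPR, against 27.8, 10.8, 17.0, 28.5 and 25.3 CPM in wt/wt. mt-Nd1 had 17.3, 12.9, 29.0, 9.73 and 9.25 CPM in dTPR/dTPR, against 23.6, 16.2, 40.8, 5.99 and 20.9 CPM in wt/wt. Both overlapped between the groups. mt-Nd4 had 14.9, 10.04, 24.7, 24.9 and 13.2 CPM in dTPR/dTPR, against 25.0, 15.1, 17.0, 8.99 and 37.5 CPM in wt/wt. mt-Rnr2 had 2.48, 33.0, 7.25, 4.33 and 17.2 CPM in dTPR/dTPR, against 2.78, 25.9, 5.66, 30.0 and 26.4 CPM in wt/wt and its low values rest on 2 to 5 counts. These overlapped as well. mt-Rnr1 had 0 to 4 counts per library in dTPR/dTPR and 0 to 11 in wt/wt, and did not pass the filter.

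The 6 protein genes at 0 followed each other along the genome, with tRNA genes between some of them: mt-Co2, mt-Atp8, mt-Atp6, mt-Co3, mt-Nd3 and mt-Nd4l, which encode subunits of complex IV, of ATP synthase and of complex I. A block of 7 pseudogenes on chromosome 1 of build GRCm38 (24611535 to 24616197, minus strand) matches genes of this stretch of mitochondrial DNA. Aligned to the mitochondrial genes, 6 of the 7 were 100% identical over their aligned length and Gm29216, the copy of the end of mt-Co1, was identical at 482 of 483 bases. The bases between the annotated copies were not aligned. They take in the tRNA genes, apart from 3 bases that mt-Ts1 shares with mt-Co1, and mt-Atp8, apart from 43 bases that it shares with mt-Atp6. The copies reach from base 6390 to base 11042 of the mitochondrial genome, and all 6 plus-strand protein genes that lie between these ends had 0 counts. All 8 plus-strand protein and rRNA genes not wholly between them had counts. mt-Co1 and mt-Nd4 lie partly inside, with 1062 and 502 bases outside. If their counts came from these bases alone, the levels would be 46.7 and 38.1 CPM per kb, in place of 32.1 and 13.9.

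The pseudogene IDs themselves held few counts: Gm28438, the copy of mt-Nd3, had 17 in 3 libraries and Gm10222, the copy of mt-Nd4l, had 3 in 1 library, and the other 5 had 0. A read from identical sequence has more than 1 place in the genome. How TopHat and HTSeq treated such reads is not given in the sources used here, and their part in the counts of 0 was not tested. Inside the stretch, the minus-strand ID mt-Ts1 had 709 counts, 482 of them in wt/wt animal 5, while 4 plus-strand tRNA IDs inside it and the other 10 outside it were all at 0. For genes at 0 in this stretch no level or genotype difference is given.

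The genotype comparison found no mitochondrial ID that differed beyond the spread between animals. In edgeR's quasi-likelihood test across all IDs, 3027 IDs passed the filter on low counts, 14 of the 37 mitochondrial IDs among them, 7 per strand. Of the 14, 0 passed an adjusted p of 0.05, against 0% of all tested IDs, and each had an adjusted p of 0.997. Limma-voom also called 0 of the 14 and DESeq2 0 of 13, since it gave no p for mt-Ts1. At an unadjusted p under 0.05 there was 1 of 14, mt-Tq, against 2.54% of all tested IDs. None of the 14 had groups without overlap, as 0.429% of tested IDs did. These p-values judge the difference between genotypes against the spread between single animals within each genotype.

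Fold changes are dTPR/dTPR over wt/wt on the log2 scale with their standard errors (SE). mt-Nd6 averaged 213133 ± 17692 CPM in dTPR/dTPR and 229533 ± 36010 CPM in wt/wt (SD, n = 5 each), a log2 fold change of -0.10 ± 0.13. Among the minus-strand tRNA IDs the values were -0.72 ± 0.28 for mt-Tq, -0.37 ± 0.36 for mt-Te, -0.29 ± 0.21 for mt-Tc, -0.27 ± 0.20 for mt-Tp and 0.04 ± 0.17 for mt-Ta. mt-Tq had an unadjusted p of 0.0204 in edgeR, 0.0191 in DESeq2 and 0.0554 in limma-voom, and passed after adjustment in none of them. Without wt/wt animal 3 mt-Tq was at -0.38 (unadjusted p = 0.141 in edgeR). Leaving out wt/wt animals 2 and 3 was a choice made after seeing the data. Without them mt-Tq was at -0.29 (unadjusted p = 0.307 in edgeR). mt-Ts1 was at -2.73 ± 1.31, but at -1.12 without wt/wt animal 5 and at -4.88 without dTPR/dTPR animal 3. On the plus strand mt-Co1 was at 0.34 ± 0.38, mt-Nd5 at 0.32 ± 0.39, mt-Nd2 at 0.19 ± 0.53, mt-Cytb at 0.01 ± 0.29, mt-Nd4 at -0.22 ± 0.60, mt-Nd1 at -0.46 ± 0.64 and mt-Rnr2 at -0.51 ± 0.84. Single animals moved many of these values. mt-Co1 was at 0.05 without dTPR/dTPR animal 1, mt-Nd5 at 0.14 without wt/wt animal 4 and at 0.54 without wt/wt animal 5, and mt-Nd2 at 0.02 without wt/wt animal 2 and at 0.38 without dTPR/dTPR animal 2. mt-Nd1 was at -0.09 without wt/wt animal 3 and at -0.81 without dTPR/dTPR animal 3, and mt-Rnr2 at -0.24 without dTPR/dTPR animal 1 and at -1.20 without dTPR/dTPR animal 2. On the minus strand mt-Nd6 was at -0.02 without wt/wt animal 2, mt-Te at -0.19 without wt/wt animal 3 and at -0.56 without wt/wt animal 4, mt-Tp at -0.16 without dTPR/dTPR animal 3 and at -0.44 without dTPR/dTPR animal 4, and mt-Tc at -0.18 without dTPR/dTPR animal 4. Of the minus-strand IDs 6 of 7 had negative values, with a median of -0.29, and of the plus-strand IDs 3 of 7, with a median of 0.01, where 47.9% of all tested IDs had negative values and the median was 0.02. Without wt/wt animals 2 and 3 the numbers of negative values were 4 of 7 and 5 of 7, with medians of -0.25 and -0.11.

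**Figure D3:**
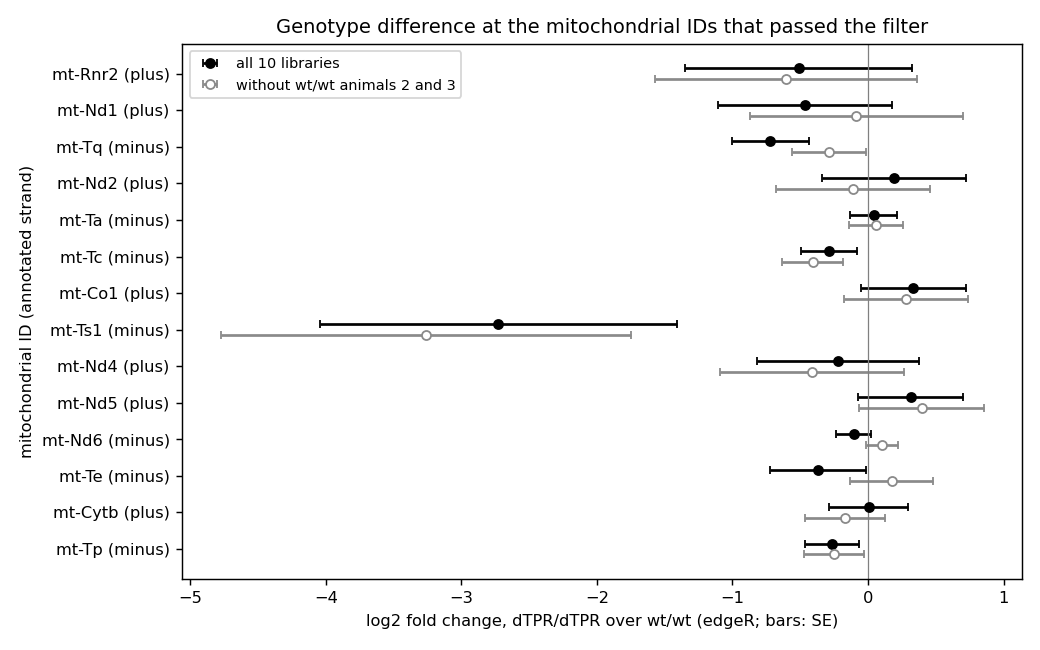
Log2 fold change, dTPR/dTPR over wt/wt, with its SE for the 14 tested mitochondrial IDs in order along the genome, from all 10 libraries (black) and without wt/wt animals 2 and 3 (open grey). Without the 2 libraries mt-Nd6 stands at 0.10 in place of -0.10 and mt-Te at 0.17 in place of -0.37, and mt-Ts1 has the widest SE. The 2 libraries were left out after seeing the data and have the highest CPM of mt-Nd6 and mt-Te.

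Summed values per animal were compared by exact permutation tests, two-sided, over all arrangements of the 10 animals, with 0.00794 the smallest p they can give and adjustment over 5 tests. All 37 IDs together stood at 219385 ± 17965 CPM in dTPR/dTPR and 237165 ± 37121 CPM in wt/wt (SD, n = 5 each; exact p = 0.333, adjusted 0.456). Of the dTPR/dTPR animals, 4 of 5 lay below the wt/wt mean, but animals 1 and 5 lay above the wt/wt median of 217001 CPM. The minus-strand tRNA IDs stood at 5953 ± 919 CPM in dTPR/dTPR and 7340 ± 1208 CPM in wt/wt (exact p = 0.0873, adjusted 0.258). Here 5 of 5 dTPR/dTPR animals lay below the wt/wt mean, but animal 2, at 6942 CPM, lay above the wt/wt median of 6871 CPM. Wt/wt animals 2 and 3 were the highest in both sums. Leaving them out was a choice made after seeing the data and lowers the wt/wt mean. The tRNA difference was then -556 CPM (exact permutation p = 0.411), in place of -1387 CPM. Plus-strand IDs stood at 298.8 ± 46.9 CPM in dTPR/dTPR and 291.8 ± 65.5 CPM in wt/wt (exact p = 0.873, adjusted 0.873).

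A ratio within the mitochondrial counts does not involve the library total. There were 28.6, 34.0, 22.2, 29.7 and 25.6 minus-strand tRNA counts per 1000 mt-Nd6 counts in dTPR/dTPR animals 1 to 5, against 34.8, 33.1, 30.8, 30.3 and 30.9 in wt/wt animals 1 to 5. Of the dTPR/dTPR animals, 4 lay below every wt/wt animal, and animal 2 lay above 4 of them. The means were 28 ± 4.42 in dTPR/dTPR and 31.996 ± 1.92 in wt/wt (SD, n = 5 each; exact permutation test, two-sided, p = 0.103, adjusted 0.258), so the difference of -3.996 did not pass. Without mt-Te in the sum the difference was -2.06 (exact p = 0.389). With 1 animal left out it ran from -2.54 without dTPR/dTPR animal 3 (exact p = 0.198) to -5.49 without dTPR/dTPR animal 2 (exact p = 0.00794). The second leaves out the 1 dTPR/dTPR animal above the wt/wt mean, its p was not adjusted, and it was the only one of the 10 to pass.

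**Figure D4:**
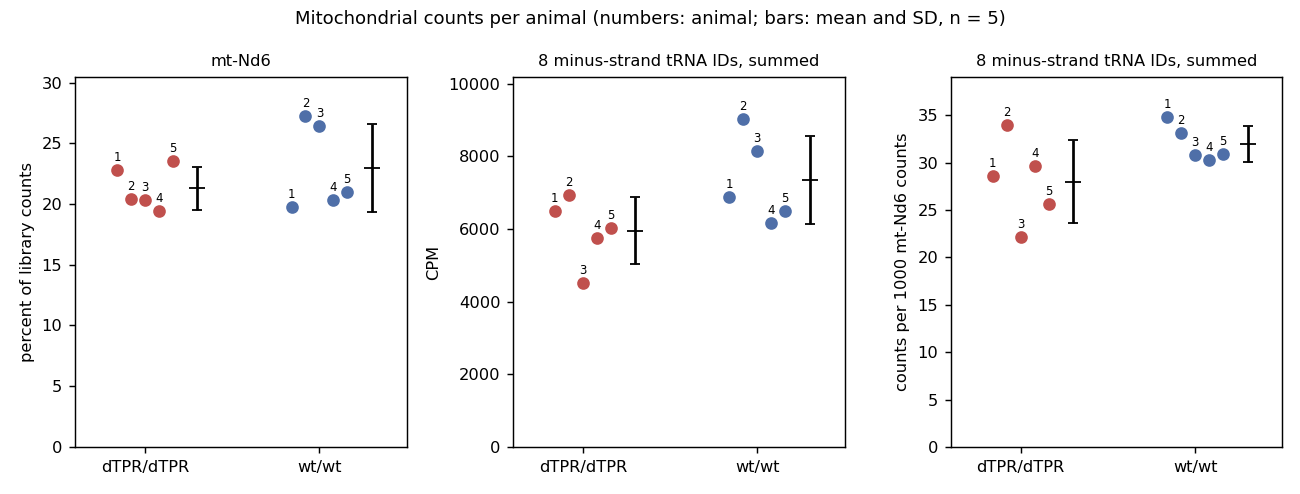
Per animal, the percent of library counts at mt-Nd6, the summed CPM of the 8 minus-strand tRNA IDs and the same sum per 1000 mt-Nd6 counts, with dTPR/dTPR left, wt/wt right and bars for the mean and SD (n = 5 each). The mt-Nd6 share is highest in wt/wt animals 2 and 3 at 27.3 and 26.4%, and the ratio is lowest in dTPR/dTPR animal 3 at 22.2.

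Wt/wt animals 2 and 3, which had the highest mitochondrial share, also had the highest striatal markers. Of 11 striatal genes, 4 had an ID on the opposite strand (Penk, Ppp1r1b, Rarb and Syndig1l) and were read there. That these counts are of the 4 genes was not tested, since the counting strand is not given. Among the others, Drd1, Drd2, Rgs9 and Tac1 were at 0 at their own IDs. The 4 summed to between 388.3 and 2189 CPM in dTPR/dTPR (median 874.9) and between 803.3 and 5306 CPM in wt/wt (median 2511). Their mean log2 CPM was 7.36, 8.42, 7.45, 6.01 and 8.47 in dTPR/dTPR animals 1 to 5, against 7.53, 9.53, 10.1, 9.05 and 7.33 in wt/wt animals 1 to 5. Wt/wt animals 3 and 2 stood highest and dTPR/dTPR animal 4, which had the lowest mitochondrial share, stood lowest. The other animals did not keep the same order in both measures. Wt/wt animal 4 came next in striatal level, at 9.05, with a mitochondrial share of 20.98%. dTPR/dTPR animal 1 had a striatal level of 7.36 and a share of 23.5%. In bulk tissue, more cells of a type and more RNA per cell cannot be told apart.

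Across the 10 animals, the striatal level and the mitochondrial log2 CPM had Pearson's r = 0.743 (permutation p = 0.0133, adjusted 0.0604 over 7 relations) and Spearman's rho = 0.624 (permutation p = 0.0610, adjusted 0.213). Without wt/wt animal 3 and dTPR/dTPR animal 4, farthest from the median striatal level, r was 0.562. Within the groups r was 0.592 in dTPR/dTPR and 0.787 in wt/wt. Both measures are divided by the same library total. Without wt/wt animals 2 and 3, all mitochondrial IDs together were 9018 CPM higher in dTPR/dTPR than in wt/wt (exact permutation p = 0.446, two-sided). The 10 libraries gave a difference of -17780 CPM. These animals were left out after seeing the data and have the highest mitochondrial values of all 10. Leaving them out therefore lowers the wt/wt mean whatever their tissue. The part of striatal tissue in the mitochondrial share was not tested. The other cell type lists were read in the same way. Of 8 oligodendrocyte markers only Bcas1 had an opposite-strand ID, with 1292 to 2163 CPM in dTPR/dTPR and 740.9 to 1503 CPM in wt/wt (log2 fold change 0.62 ± 0.19, unadjusted p = 0.00448 and adjusted p = 0.999 in edgeR). Cnp, another marker of these cells, was tested at its own ID and averaged 65.6 ± 20.1 CPM in dTPR/dTPR and 81.1 ± 38.3 CPM in wt/wt (SD, n = 5 each), a log2 fold change of -0.27 ± 0.40. Astrocyte markers (2 of 6 with such an ID) ranged from 137.6 to 406.2 CPM in dTPR/dTPR and from 96.3 to 317.4 CPM in wt/wt, and choroid plexus markers (1 of 5) from 0 to 58.0 CPM in dTPR/dTPR and from 10.2 to 186.2 CPM in wt/wt. Microglial markers (2 of 6) ranged from 0 to 11.2 CPM in dTPR/dTPR and from 0 to 14.7 CPM in wt/wt at opposite-strand IDs. At its own ID the microglial receptor gene Csf1r had 92 to 186 counts per library, with 155.4 ± 20.9 CPM in dTPR/dTPR and 167.9 ± 45.4 CPM in wt/wt (SD, n = 5 each). The blood marker Alas2 (1 of 5) was at 0 at its opposite-strand ID and had 0 to 17 counts per library at its own, where the globin genes were at 0. The part of these cells in the mitochondrial counts was not tested.

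mt-Nd6 and its neighbour mt-Te had r = 0.731 on the log2 CPM scale (permutation p = 0.0173, adjusted 0.0604) and rho = 0.685 (permutation p = 0.0357, adjusted 0.213). Without wt/wt animals 2 and 3, r was 0.414. Within the groups r was 0.614 in dTPR/dTPR and 0.772 in wt/wt. mt-Tq had r = 0.606 with mt-Nd6 (permutation p = 0.0607, adjusted 0.142), and r = -0.0059 without the same animals. For mt-Tp, mt-Ta and mt-Tc, r with mt-Nd6 was -0.036, 0.053 and 0.053, none past the threshold. For mt-Tc, r was 0.733 within dTPR/dTPR and -0.684 within wt/wt, a difference that was not tested. Age had r = 0.254 and rho = 0.0793 with the mitochondrial log2 CPM (permutation p = 0.489 and 0.832, adjusted 0.856 and 0.946). Within the groups r with age was -0.244 in dTPR/dTPR and 0.379 in wt/wt, and without wt/wt animal 4 and dTPR/dTPR animal 5 it was 0.302.

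**Figure D5:**
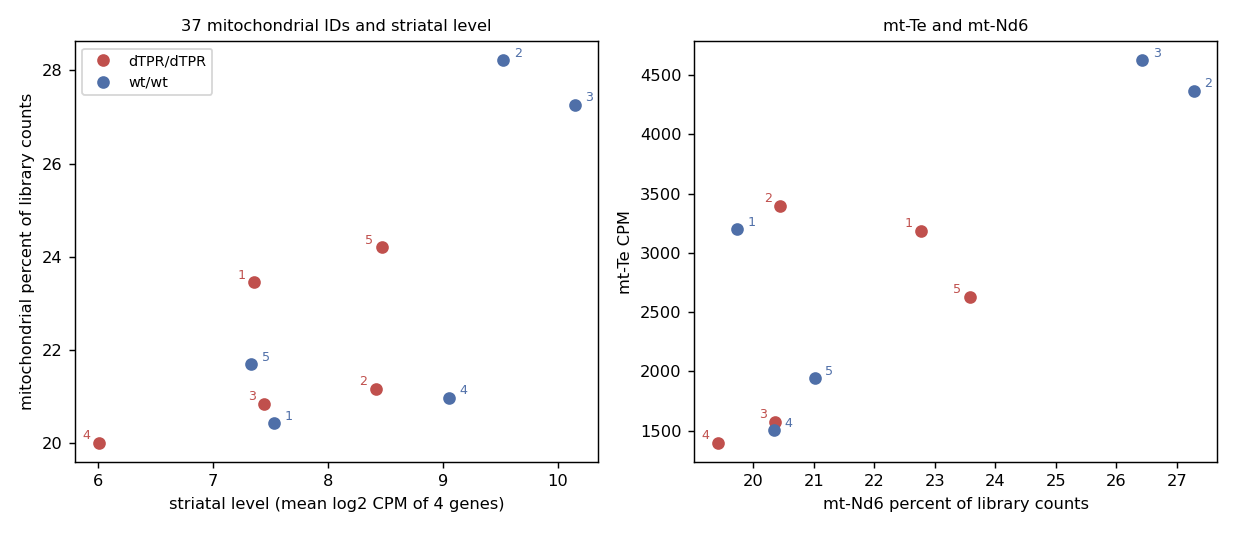
Left, the percent of library counts at the 37 mitochondrial IDs against the striatal level (mean log2 CPM of 4 genes) in the 10 animals, and right, mt-Te CPM against the percent of counts at mt-Nd6, with red points for dTPR/dTPR and blue points for wt/wt. Wt/wt animals 2 and 3 lie at the upper right in both. On the left, r is 0.562 without wt/wt animal 3 and dTPR/dTPR animal 4, farthest from the median on the x axis (log2 scale). This value still includes wt/wt animal 2, and r on the left without both wt/wt animals 2 and 3 was not computed. On the right, the 2 farthest are wt/wt animals 2 and 3, and r without them is 0.414.

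Nuclear genes that keep, transcribe and process mitochondrial DNA and RNA were set beside these values. They were read from the fit on counts summed per opposite-strand gene, with the same limit that the counting strand is not given, and then at their own IDs. In the first fit 0% of 2019 genes passed an adjusted p of 0.05 and 2.82% had an unadjusted p under 0.05. Of 16 listed genes of mitochondrial DNA upkeep 3 were tested and 0 passed, with 1 positive and 2 negative fold changes and a median of -0.13, where 49.8% of all genes had negative values. Lig3, the DNA ligase that mitochondria use, stood at 315.9 ± 25.9 CPM in dTPR/dTPR and 408.9 ± 64.6 CPM in wt/wt (SD, n = 5 each; log2 fold change -0.39 ± 0.17, unadjusted p = 0.0401 and adjusted p = 0.999 in edgeR). Polg, the replicative DNA polymerase, stood at 103.9 ± 24.4 CPM in dTPR/dTPR and 102.8 ± 19.1 CPM in wt/wt, and Primpol, a primase-polymerase, had a log2 fold change of -0.13 ± 0.67.

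Of 16 transcription genes 2 were tested, both with negative values and 0 passing: Mrpl12, a mitochondrial ribosomal protein that in human cells also binds the mitochondrial RNA polymerase, at -0.15 ± 0.30 and Mterf2, of the transcription termination factor family, at -0.12 ± 0.73. Of 35 genes of mitochondrial RNA processing, stability and decay 5 were tested, 2 positive and 3 negative, with 0 passing and a median of -0.05. Nsun2, an RNA methyltransferase, was at 0.99 ± 0.54, Fastk, founder of a family of mitochondrial RNA-binding proteins, at -0.42 ± 0.32, and Ptcd1, the most abundant, at 247.6 ± 29.0 CPM in dTPR/dTPR and 253.1 ± 48.4 CPM in wt/wt. Of 37 nuclear complex I subunits, partners of mt-Nd6 in the enzyme, 4 were tested, all negative with a median of -0.60 and 0 passing. Ndufab1, the mitochondrial acyl carrier protein, was at -0.91 ± 0.85, Ndufa9 at -1.09 ± 1.07 and Ndufb11, the most abundant, at -0.29 ± 0.37. Counts were low: Ndufab1 averaged 8.35 CPM in dTPR/dTPR and 15.6 CPM in wt/wt, and Ndufa9 16.8 and 35.6 CPM. Without a filter on low counts, 10 of the subunits at opposite-strand IDs gave 4 positive and 6 negative values, with a median of -0.26. The 16 at their own IDs then gave 6 positive and 10 negative values, with a median of -0.48. At their own IDs 1, 4, 5 and 3 members of these lists were tested and 0 passed, with medians of 0.13, 0.20, -0.29 and -0.05. There Lig3 was at 0.13 ± 0.46 and Nsun2 at -0.12 ± 0.59, each with the other sign. Without a filter on low counts, 8, 5, 11 and 10 members could be tested at opposite-strand IDs and 9, 10, 23 and 16 at their own IDs, with 0 passing.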

How the data were processed

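Cortical RNA of 10 mice, 5 dTPR/dTPR and 5 wt/wt, was sequenced. Per the labels' protocols, tissue was lysed in TRIzol and a SENSE Total RNA-Seq kit gave the single-end libraries. The submitters' processing notes name TopHat, HTSeq, DESeq2 and build GRCm38.p5, and versions are not given in the sources used here. The authors deposited whole-number read counts, 1 value per gene ID and library. Positions came from GENCODE mouse release M21, which holds 52403 of the 53090 IDs.

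Counts were tested with edgeR 4.0.16 in R 4.3.3 (TMM factors, filterByExpr on group, robust quasi-likelihood fit, Benjamini-Hochberg adjustment, threshold 0.05), checked on simulated data. An ID was assigned to an opposite-strand gene that held 90% or more of the exon bases facing it (8188 IDs, 7385 genes). Correlations used log2(CPM + 2) and 100000 permutations. DESeq2 1.42.0, limma 3.58.1 and the settings in the closing section were alternatives. Mitochondrial IDs that passed the filter were named, and from each nuclear list the most abundant gene and the 2 of smallest p. Members and lists were chosen with earlier results of these data known. Animal numbers recur in both groups, but no source says that they pair animals. Some listed marker genes are not reported here.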

Additional observations from a re-analysis of the deposited data

Results flagged for a closer look

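Each group's 5 values were searched for an animal standing apart from the rest, and 5 of 48 such searches found one. For independent values with a normal spread, chance would flag about 1 in 20, which would be 2.4. The values searched include low counts and sums beside their own members, so 2.4 is only a rough guide. In wt/wt animal 5, mt-Ts1 stood at 531.2 CPM, with the next wt/wt animal at 62.9 CPM, and the plus-strand IDs together at 405.5 CPM, with the next at 283.0 CPM. In dTPR/dTPR animal 3, mt-Ts1 stood at 91.4 CPM, with the next dTPR/dTPR animal at 8.65 CPM. In wt/wt animal 3, mt-Tq stood at 438.5 CPM, with the next at 214.6 CPM, and in wt/wt animal 4, mt-Rnr1 stood at 16.5 CPM, with the next at 4.53 CPM.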

How the results depend on the processing

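No mitochondrial ID passed the threshold in any of the 21 alternative fits, and 277 of 293 fold changes kept their direction. Leaving out wt/wt animals 2 and 3, a choice made after seeing the data, turned the difference (dTPR/dTPR minus wt/wt) to 9018 CPM for all mitochondrial IDs, 9593 CPM for mt-Nd6 and -18.4 CPM for the plus strand, and the log2 fold changes to 0.10 for mt-Nd6, 0.17 for mt-Te, -0.11 for mt-Nd2 and -0.17 for mt-Cytb. mt-Cytb, near 0, was also at -0.0089 with DESeq2 size factors, -0.00025 with library totals, -0.011 with scaling on other IDs and -0.0093 in DESeq2. With 1 animal left out, the differences ran from -25986 to -6546 CPM for all IDs, from -24481 to -5582 CPM for mt-Nd6, from -1683 to -965 CPM for minus-strand tRNA IDs, from -7.22 to 35.4 CPM for the plus strand and from -5.49 to -2.54 for tRNA counts per 1000 mt-Nd6 counts. In these fits mt-Cytb ran from -0.17 to 0.13, mt-Ta from -0.041 to 0.14 and mt-Nd4 from -0.41 to 0.087. The cause of these changes was not tested. With the animal number as a replicate block, 0 IDs passed and the difference for all mitochondrial IDs of -17780 CPM had an exact p of 0.438. The unadjusted edgeR p of mt-Tq was 0.0585 there. Same-numbered animals deviated together with correlations of -0.090 to 0.122, and differently numbered animals with -0.134 to 0.156. Such weak correlations cannot tell whether the numbers pair animals. Depth limits the plus strand, with 235.2 counts per library on average. Without a filter on low counts, 2 of 14428 IDs passed, neither of them mitochondrial.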
